A study of Mus musculus with 9 samples.

Results

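The genes examined were 10 markers of tissue-resident macrophages, among them the 3 chains of the complement protein C1q. They were Adgre1, C1qa, C1qb, C1qc, Mrc1, Cd163, Cd68, Timd4, Mertk and Spic, matched by symbol in the GRCm38 annotation among the 39179 Ensembl genes listed for each library. RNA had been sequenced from laser-microdissected capillaries, with the cells around them, from the ossification front (OF) of the femur. The comparison was between 5 juvenile libraries from mice aged 4 weeks and 4 adult libraries from mice aged 12 weeks, all of the Tg(TIE2GFP)287Sato/J line with C57BL/6 given as origin. In this line GFP is driven by the Tie2 (Tek) promoter, which is active in endothelial cells and also in some haematopoietic cells, and the green signal served to find the vessels. Many pieces were pooled for a library, and the study writes of different mice at the juvenile age, but the labels do not state that each library came from a separate mouse, so p-values measure the spread between libraries.

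Library totals lay between 4856833 and 7398483 counts in the juvenile group and between 5821596 and 8077362 in the adult group. A gene at 0 counts could still have been present at up to 3 counts, which is 0.371 to 0.618 CPM (counts scaled to a common library total), and this covers counting error only because amplified reads are not independent molecules. Some libraries stood apart. Adult replicate 2 had 0 counts of Adgre1, C1qc, Mrc1, Cd163 and Timd4 and few neutrophil transcripts. Juvenile replicates 4 and 5 had 11 and 1 counts of the X-linked Xist with 524 and 439 counts of the Y-linked Ddx3y, while every other library had at least 2965 counts of Xist and at most 1 of Ddx3y. Results are therefore also given without adult replicate 2 and without juvenile replicates 4 and 5.

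Resident macrophages settle in a tissue and clear dying cells, debris and aged red cells. C1q is the recognition protein of the classical complement pathway, it is assembled from A, B and C chains, and macrophages rather than liver cells are its main source. In bone, macrophages line the bone surface and form the centres of erythroblastic islands in marrow, and osteoclasts arise from the same myeloid lineage and share part of its gene set.

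The C1q chain genes and Spic had higher mean levels in adult than in juvenile libraries, carried by adult replicates 1, 3 and 4. Mertk, a receptor for dying cells, had a lower mean level in adult libraries, and Cd68 was abundant at both ages. Of the 9 genes that passed the filter on low counts, 0 had an adjusted p under 0.05 (edgeR's quasi-likelihood test with Benjamini-Hochberg adjustment over 13418 genes), where 3.88% of all tested genes did, 1.89% higher and 1.99% lower in adult libraries. At an unadjusted p under 0.05 there were 6 genes, C1qa, C1qb, C1qc, Spic and Cd68 with higher and Mertk with lower adult values, beside 17.3% of all tested genes. DESeq2 with its default settings called 2 genes, Spic and C1qb, where it called 9.47% of the genes with an adjusted p, and limma voom with sample quality weights called 0, where it called 3.43% of all tested genes. Without adult replicate 2, edgeR called 4 genes, C1qa, C1qb, C1qc and Spic, beside 4.63% of all genes tested in that fit. That library was singled out for its low counts of these genes, so the fit without it describes its weight and is no independent evidence of a difference. In that fit C1qa, at 4, 0, 5, 48 and 0 juvenile counts, passed the filter only through the adult libraries, so its call is partly fixed by the filter. Without juvenile replicate 4 edgeR called 1 gene, C1qb, where 2.07% of all tested genes were called, and without juvenile replicates 4 and 5 it called 0, where 0.526% of all tested genes were called. Leaving out any other single library gave 0. Juvenile replicate 4 had the most C1qb of the juvenile libraries, so leaving it out raises the difference by itself. At 22, 1, 13 and 0 remaining juvenile counts, C1qb passed the filter only through the adult libraries, so its call is partly fixed. In RNA pooled from many cells, fewer cells of a type and less RNA per cell cannot be told apart.

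C1qa (ENSMUSG00000036887), C1qb (ENSMUSG00000036905) and C1qc (ENSMUSG00000036896) encode the 3 C1q chains. C1qb had normalised counts, that is counts scaled to a common effective library size, of 25.0, 0.904, 17.4, 94.3 and 0 in juvenile replicates 1 to 5 and of 952, 56.6, 241 and 624 in adult replicates 1 to 4. Adult replicates 1, 3 and 4 lay above every juvenile library, and adult replicate 2 lay below juvenile replicate 4. The juvenile mean was 27.5 ± 38.8 (SD, n = 5), and the adult mean was 468 ± 399.8 (SD, n = 4). On the log2 scale the fold change, adult over juvenile in all cases here, was 4.09 with a standard error (SE) of 1.06, and the adjusted p was 0.0513 in edgeR's quasi-likelihood test with Benjamini-Hochberg adjustment.

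C1qa showed the same arrangement, with normalised counts of 4.55, 0, 6.68, 56.6 and 0 in juvenile and of 669.6, 1.05, 203 and 456 in adult replicates. Adult replicate 2, with 1 count, lay within the juvenile range. The log2 fold change was 4.61 (SE 1.36), and the adjusted p was 0.0815 (edgeR, Benjamini-Hochberg). C1qc had normalised counts of 31.9, 0, 50.8, 17.7 and 6.65 in juvenile and of 591, 0, 120.4 and 664 in adult replicates. Here too 3 adult libraries were above all juvenile ones and adult replicate 2 was at 0. The log2 fold change of C1qc was 4.02 (SE 1.25), with an adjusted p of 0.0970 (edgeR, Benjamini-Hochberg).

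With adult replicate 2 left out, a choice that used the low C1q counts of this library and so raises the values by itself, the log2 fold changes were 5.05 for C1qa, 4.48 for C1qb and 4.46 for C1qc, and the adjusted p-values were 0.0226, 0.0259 and 0.0167 (edgeR, Benjamini-Hochberg). C1qa passed the filter here only through the adult libraries, with juvenile counts of 4, 0, 5, 48 and 0, so its value is partly fixed by the filter. Without juvenile replicate 4, the juvenile library with the most C1qa and C1qb, C1qb had a log2 fold change of 5.44 and an adjusted p of 0.0298 (edgeR, Benjamini-Hochberg), and C1qa no longer passed the filter. Leaving out the highest juvenile library raises the C1qb value by itself. At 22, 1, 13 and 0 remaining juvenile counts, C1qb passed the filter only through the adult libraries, so its call is partly fixed. Without juvenile replicates 4 and 5 the log2 fold changes were 6.52, 5.04 and 3.66 for C1qa, C1qb and C1qc, with adjusted p-values of 0.132, 0.0966 and 0.432 (edgeR, Benjamini-Hochberg). In that fit the juvenile counts of C1qa were 4, 0 and 5, so C1qa passed the filter only through adult libraries and its value is rough.

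**Figure D1:**
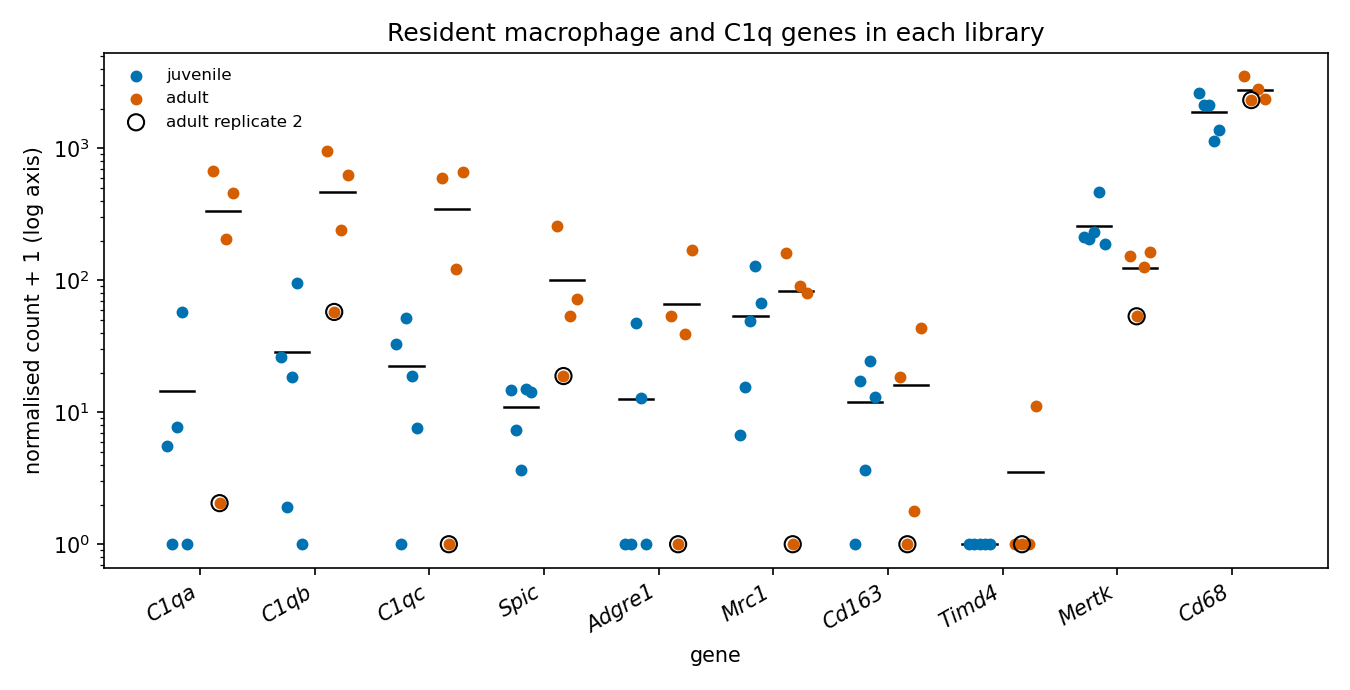
Normalised counts plus 1 (log axis) of the 10 genes in 5 juvenile (blue) and 4 adult (orange) libraries, 1 point per library, with a black bar at the group mean and a ring around adult replicate 2. The C1q genes of adult replicates 1, 3 and 4 lie above all juvenile points, and the ringed library lies among or below the juvenile points for every C1q gene.

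Spic (ENSMUSG00000004359) encodes Spi-C, an ETS family transcription factor induced by haem and needed for iron-recycling macrophages. Its normalised counts were 13.7, 6.33, 2.67, 14.1 and 13.3 in juvenile and 259, 17.8, 52.8 and 71.6 in adult replicates. The lowest adult library, replicate 2, was just above the highest juvenile one, so the ages did not overlap, as for 4.08% of all tested genes in this direction. On the log2 scale the difference was 3.31 (SE 0.86), with an adjusted p of 0.0511 in edgeR (Benjamini-Hochberg) and 0.00113 in DESeq2. Across the alternatives the adjusted p ran from 0.00113 to 0.210. Adult replicate 1 held most of the adult counts, 357 against 17, 68 and 91 in the other adult libraries, and without it the log2 fold change was 2.24 with an adjusted p of 0.194 (edgeR, Benjamini-Hochberg). Without adult replicate 2, the lowest adult library, it was 3.68 with an adjusted p of 0.0226 (edgeR, Benjamini-Hochberg).

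Adgre1 (ENSMUSG00000004730) encodes F4/80, the classical surface marker of mouse macrophages. It had 0, 0, 35, 10 and 0 counts in juvenile and 73, 0, 49 and 216 in adult replicates. It was thus at 0 in 3 of 5 juvenile and in 1 of 4 adult libraries, and the ages overlapped. The log2 fold change was 2.48 (SE 1.61), with an adjusted p of 0.492 (edgeR, Benjamini-Hochberg). With 1 library left out the value ran from 1.41 (without adult replicate 4) to 4.43 (without juvenile replicate 3). It was 2.92 without adult replicate 2 and 2.07 without juvenile replicates 4 and 5. Mrc1 (ENSMUSG00000026712), the mannose receptor, had between 5 and 109 counts in juvenile and between 0 and 219 in adult libraries. Cd163 (ENSMUSG00000008845), the receptor for haemoglobin bound to haptoglobin, had between 0 and 20 counts in juvenile and between 0 and 54 in adult libraries. Both ranges overlapped widely, with log2 fold changes of 0.64 (SE 1.09) and 0.47 (SE 1.37). Both signs turned in the limma voom fit with sample quality weights, which changes the method and the weight of each library together. With 1 library left out Mrc1 ran from 0.11 (without adult replicate 1) to 1.28 (without juvenile replicate 4). Without adult replicate 2 the values of Mrc1 and Cd163 were 1.07 and 0.90. Without juvenile replicates 4 and 5 they were 1.84 and 1.23. Timd4 (ENSMUSG00000055546), a phosphatidylserine receptor of long-lived resident macrophages, had 13 counts in adult replicate 4 and 0 in the other 8 libraries, did not pass the filter and was not tested.

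Mertk (ENSMUSG00000014361) encodes a receptor tyrosine kinase through which macrophages engulf apoptotic cells. Its normalised counts were 210.5, 203, 231, 463 and 186 in juvenile and 153, 52.4, 126 and 162 in adult replicates. Every adult library lay below every juvenile one, as for 5.07% of all tested genes in this direction, with juvenile replicate 4 the highest and adult replicate 2 the lowest. On the log2 scale the difference was -1.07 (SE 0.41), with an adjusted p of 0.183 (edgeR, Benjamini-Hochberg). It was -0.79 without adult replicate 2 (unadjusted p = 0.0557) and -0.80 without juvenile replicates 4 and 5 (unadjusted p = 0.111, both edgeR). Mertk therefore lay on the other side from the C1q chains between the ages. Over the deviations of the 9 libraries from their age mean, Mertk and C1qa had a Pearson r of 0.97 and a Spearman rho of 0.98, and r was 0.94 without the 2 libraries farthest out in C1qa. For Mertk and C1qb r was 0.83 and rho 0.83, with an r of 0.76 without the 2 farthest libraries. For Mertk and C1qc r was 0.75 and rho 0.73, and r was 0.35 without adult replicate 2 and juvenile replicate 2, so that relation rests on those libraries.

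Cd68 (ENSMUSG00000018774), a glycoprotein of lysosomes and endosomes found in macrophages and in osteoclasts, was counted at a high level in every library. Its normalised counts were 2634, 2130.1, 2137, 1137 and 1382 in juvenile and 3513, 2322, 2805 and 2368 in adult replicates. The ages overlapped, with juvenile replicates 4 and 5 the lowest. The log2 fold change was 0.55 (SE 0.24), with an adjusted p of 0.256 (edgeR, Benjamini-Hochberg). It was 0.26 without juvenile replicates 4 and 5 and 0.64 without adult replicate 2.

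To compare the genes with each other, normalised counts were divided by the length of the exon union in kb. In adult libraries Cd68 was highest at 2189 ± 439 normalised counts per kb (SD, n = 4). C1qb followed at 430.5 ± 367, C1qa at 320 ± 281 and C1qc at 178 ± 172 (SD, n = 4), with differences between the means smaller than the spread between libraries. Within adult replicates 1, 3 and 4 the order was the same, C1qb above C1qa above C1qc, but with the longest transcript as length C1qc exceeded C1qa in adult replicate 4. In adult replicate 2 C1qb was highest, while C1qa at 1 count and C1qc at 0 cannot be ordered. Mertk at 28.4 ± 11.5, Spic at 26.1 ± 28.1, Adgre1 at 20.1 ± 22.6 and Mrc1 at 12.8 ± 10.2 (SD, n = 4) followed. Neighbours in this order differed by less than their spread, while Mertk was above Mrc1 in every adult library. Cd163 at 2.78 ± 3.64 and Timd4 at 1.18 ± 2.35 came last. In juvenile libraries Cd68 was at 1499 ± 487 and Mertk, at 59.7 ± 26.6 normalised counts per kb (SD, n = 5), came next. C1qb was then at 25.3 ± 35.7, C1qa at 13.04 ± 23.3, C1qc at 11.1 ± 10.6 and Mrc1 at 8.26 ± 7.70 (SD, n = 5), with differences smaller than the spread between libraries. With the longest transcript as length, the C1qc mean was 286 normalised counts per kb in adult and 17.8 in juvenile libraries, the latter above C1qa. By that length Spic was at 43.8 in adult libraries, above Mertk at 28.7, so the order of these genes depends on the length used. Of the per-kb C1q signal in adult replicates 1, 3 and 4, C1qb made up 42.3% to 47.9%, C1qa 32.3% to 40.8% and C1qc 13.01% to 25.4%. Adult replicate 2 differed, with 98.1% from C1qb.

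The C1q genes lie next to each other on the minus strand of chromosome 4 in GRCm38, C1qb from 136880129 to 136886187, C1qc from 136889804 to 136893065 and C1qa from 136895917 to 136898803. No exon of the 10 genes overlaps an exon of another annotated gene. Of the nearest protein-coding genes with counts, none of those tested was called in edgeR. Ephb2, which ends 44141 bases before the cluster, had a log2 fold change of -0.15 (SE 0.81) and Zbtb40, 80929 bases beyond it, one of -0.78 (SE 0.48). Epha8, which lies between the cluster and Zbtb40, had 80 counts over the juvenile libraries and 173 in adult replicate 3 with 0 in the other adult ones, and did not pass the filter.

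Promoter sequences were available for 8 of the 10 genes and not for Adgre1 and C1qa. Because C1qb, C1qc and Spic had larger adult than juvenile values, the bases just upstream of their RefSeq starts (GRCm38.p6) were searched for AGGAAGT, the core bound by ETS factors such as PU.1 and Spi-C, on both strands. The core was present in 4 of the 8 promoters, C1qb, C1qc, Spic and Mrc1, and in 9.35% of all 32851 promoters of the table, each 250 bases before to 50 after the start. The longer form GAGGAAGT, which contains the core, was present in C1qc and in 3.20% of all promoters. TGCTGAC, a core of Maf recognition elements, was present in Timd4 and in 4.67% of all promoters, and TGACTCA, an AP-1 site, in Cd68 and in 5.20%. The sequences are written 5′ to 3′ on the strand of the gene and stop where an annotated exon begins, with the core, here as its reverse complement ACTTCCT, in capitals. C1qb is shown for chr4:136886201-136886450, C1qc for chr4:136893066-136893164 and Spic for chr10:88683024-88683273, all on the minus strand, and the core starts 53, 195 and 48 bases upstream of the start. The RefSeq start of Spic is shared by 3 of its 4 transcripts in GENCODE. The other transcript starts farther upstream, so the Spic stretch lies in an intron of that transcript, inside the annotated gene (chr10:88674772-88685015). A match describes letters and does not show that a factor binds.
C1qb: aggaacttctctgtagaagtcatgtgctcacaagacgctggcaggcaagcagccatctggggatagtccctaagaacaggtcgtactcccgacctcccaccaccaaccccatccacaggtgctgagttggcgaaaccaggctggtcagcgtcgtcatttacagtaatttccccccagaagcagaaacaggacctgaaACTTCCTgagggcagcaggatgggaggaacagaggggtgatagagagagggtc
C1qc: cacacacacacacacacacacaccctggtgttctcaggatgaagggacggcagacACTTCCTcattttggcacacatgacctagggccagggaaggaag
Spic: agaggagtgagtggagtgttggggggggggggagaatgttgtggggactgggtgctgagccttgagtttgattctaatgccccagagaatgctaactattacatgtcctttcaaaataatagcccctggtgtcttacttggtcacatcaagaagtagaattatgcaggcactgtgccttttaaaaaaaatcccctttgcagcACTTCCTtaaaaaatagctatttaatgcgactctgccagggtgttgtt

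The C1q complex acts through the proteases C1r and C1s, which cleave C4 and C2. Of 8 genes of the classical and lectin cascades and their shared later steps, 5 were tested. In edgeR 0 had an adjusted p under 0.05, where 3.88% of all tested genes did, and 1 had an unadjusted p under 0.05, where 17.3% did. DESeq2 called 2, where it called 9.47% of the genes with an adjusted p. The median log2 fold change of the 5 was 0.64, beside 0.01 over all tested genes. C1ra, which encodes the C1r protease, had normalised counts of 6.83, 22.6, 18.7, 55.4 and 19.9 in juvenile and of 90.7, 112, 45.0 and 122 in adult replicates. Adult replicate 3 was below juvenile replicate 4, and the log2 difference was 1.90 (SE 0.68) with an adjusted p of 0.154 (edgeR, Benjamini-Hochberg). C1s1 had between 0 and 77 counts in juvenile and between 0 and 238 in adult libraries. C1ra, C1s1 and C4b have close paralogs with which reads could be shared, so their levels are uncertain. Masp1 and Hc, the gene of C5, were at 0 in every library.

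Among 20 complement regulators and receptors, 15 were tested, of which 2 rose and 2 fell in adult libraries, where 1.89% and 1.99% of all tested genes did, with a median log2 fold change of 0.43. Cfp, the gene of properdin, rose by 1.70 (SE 0.35, adjusted p = 0.0189, edgeR, Benjamini-Hochberg), with all 4 adult libraries above all juvenile ones. Itgam, a subunit of complement receptor 3, rose by 1.82 (SE 0.41, adjusted p = 0.0283, edgeR, Benjamini-Hochberg), but its exons overlap another annotated gene. The genes that fell were Cd59a, which blocks the membrane attack complex, at -0.88 (SE 0.19), and Lrp1, a receptor for many ligands, at -0.84 (SE 0.19). Vsig4, the complement receptor of Kupffer cells and other resident macrophages, had 0 counts in all 9 libraries.

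Of 30 genes for the clearance of apoptotic cells, 23 were tested and 1 passed, a share near the 3.88% over all tested genes, with a median log2 fold change of -0.16. It was Gas6, the ligand that bridges Mertk and Axl to phosphatidylserine. Gas6 had normalised counts of 557.5, 449, 313, 491 and 476 in juvenile and of 1098, 734, 951 and 1284 in adult replicates. All adult libraries lay above all juvenile ones, adult replicate 2 being the lowest of them, and the log2 difference was 1.15 (SE 0.22, adjusted p = 0.0135, edgeR, Benjamini-Hochberg). Its exons overlap Tmem255b on the other strand, and without strand information reads of the pair cannot be told apart. Axl, another Gas6 receptor, had normalised counts between 46.6 and 191 in juvenile and between 7.34 and 395 in adult libraries, for a log2 ratio of 0.77 ± 0.86 (SE).

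Of 23 scavenger and lectin receptors, 11 were tested and 2 rose, where 1.89% of all tested genes did, with a median log2 fold change of 0.01. Clec4a3, a C-type lectin receptor of myeloid cells, had 4, 0, 0, 0 and 2 counts in juvenile and 166, 14, 253 and 224 in adult replicates. Clec10a, a lectin of macrophages and dendritic cells, had 3 counts in juvenile replicate 4, 0 in the other juvenile libraries and 153, 11, 26 and 74 in adult replicates. Both were above the juvenile range in every adult library and lowest in adult replicate 2. They passed the filter on low counts only through the adult libraries, where they are high, so that their calls are partly fixed by the filter, and no size or p is given. Siglec1, the sialoadhesin of bone marrow macrophages, had normalised counts between 30.7 and 69.5 in juvenile and between 10.2 and 55.6 in adult libraries, for a log2 ratio of -0.36 ± 0.70 (SE). Marco, Cd5l and Cd209b were at 0 in every library.

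Of 20 genes of macrophage identity and CSF1 signalling, 18 were tested and 3 rose, where 1.89% of all tested genes did, with a median log2 fold change of 0.27. Csf1r, the receptor on which macrophages and osteoclasts depend, had normalised counts of 2392, 2007, 1887, 1576 and 2300.1 in juvenile and of 4573, 3966, 3800.3 and 4279 in adult replicates. All adult libraries were above all juvenile ones, adult replicate 2 among them. On the log2 scale the difference was 1.03 (SE 0.16, adjusted p = 0.00406, edgeR, Benjamini-Hochberg). Its ligand Csf1 rose by 1.04 (SE 0.22, adjusted p = 0.0187) and the transcription factor Maf by 1.15 (SE 0.21, adjusted p = 0.0116, both edgeR, Benjamini-Hochberg), each with all 4 adult libraries above all juvenile ones. Exons of Csf1r and of Maf overlap genes on the other strand, Hmgxb3 and Gm15655.

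Macrophages of erythroblastic islands and of the spleen degrade haem and export its iron. Of 23 genes of iron and haem recycling, 20 were tested and 5 rose, where 1.89% of all tested genes did, with a median log2 fold change of 0.72. Vcam1, an adhesion molecule of island macrophages and of stroma, rose by 2.97 (SE 0.54, adjusted p = 0.0117), and Blvrb, a biliverdin reductase also abundant in red cells, by 2.86 (SE 0.52, adjusted p = 0.0112, both edgeR, Benjamini-Hochberg), with no overlap of the ages in either. Fth1, the ferritin heavy chain, rose by 1.13 (SE 0.20, adjusted p = 0.00911, edgeR, Benjamini-Hochberg), although its many pseudogenes make counts uncertain. Cp and Hp, the genes of ceruloplasmin and haptoglobin, completed the 5, and Hp alone of them had an adult library, replicate 2, within the juvenile range. Exons of Cp and Vcam1 overlap Hps3 and Gm43109 on the other strand. Hmox1, the haem oxygenase, had normalised counts between 56.1 and 196 in juvenile and between 34.1 and 241 in adult libraries. Slc40a1, the iron exporter ferroportin, had a log2 fold change of 1.33 (SE 0.44) with an adjusted p of 0.117 (edgeR, Benjamini-Hochberg).

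The widest list held 40 symbols of macrophages in general and of microglia, of which 38 were matched in the tables and 29 tested, 9 rose and 2 fell, where 1.89% and 1.99% of all tested genes did, with a median log2 fold change of 1.16. Apoe, a lipid carrier made by macrophages and other cells, had normalised counts of 715, 733, 916, 1049 and 471 in juvenile and of 6571, 1336, 4613 and 6444 in adult replicates. Fcer1g, the common signalling chain of Fc receptors, had 729, 706, 756, 375 and 347 in juvenile and 2084, 1618, 2171 and 1922 in adult replicates. In both genes every adult library exceeded every juvenile one, and adult replicate 2 was the lowest adult library. The log2 fold changes were 2.61 (SE 0.38, adjusted p = 0.00303) and 1.74 (SE 0.25, adjusted p = 0.00285, both edgeR, Benjamini-Hochberg). Pf4, a platelet chemokine, also rose, by 6.60 (SE 1.01, adjusted p = 0.00406, edgeR, Benjamini-Hochberg). Tmem119, known from microglia and also from osteoblasts, fell by 1.47 on the log2 scale (adjusted p = 0.00406, edgeR, Benjamini-Hochberg). The other gene that fell, Gpnmb, named after its values were seen, had 398, 76, 32, 26 and 4 counts in juvenile replicates and 0 in every adult library. It passed the filter only through the juvenile libraries, so its call is partly fixed by the filter. Against a floor of 3 counts per adult library its mean CPM was at least 43.5-fold lower in adult libraries, and at least 13.1-fold lower without juvenile replicate 1, which holds most of the counts.

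The genes of these 7 lists that had passed kept their direction in the fit of 7 libraries, without juvenile replicates 4 and 5. With fewer libraries, however, that fit called 0 genes of the cascade, regulator, clearance, scavenger and iron lists. It called 1 identity gene and 1 general macrophage gene, where 0.526% of all tested genes were called. Without adult replicate 2, where 651 genes in all were called against 520 with every library, the general macrophage list had 15 higher and 2 lower genes of 32 tested (29 with every library) and the scavenger list 4 higher of 15 tested (11 with every library), beside 4.63% of all genes tested in that fit. The identity list then had 3 higher and 1 lower, the iron list 4 higher, and the regulator and clearance lists had the same numbers as with all libraries.

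Markers of several other blood cells also differed between the ages, and their part in the C1q values was not tested. The counts of called markers below stand against 1.89% of all tested genes called higher and 1.99% called lower in adult libraries, and against 4.63% called in either direction without adult replicate 2 and 0.526% without juvenile replicates 4 and 5. At an unadjusted p under 0.05 in edgeR the share was 17.3%, and DESeq2 called 9.47% of the genes with an adjusted p. Of 12 neutrophil markers 10 were tested and 9 were higher in adult libraries. Some of the 9 passed the filter on low counts only through the adult libraries, among them Ltf with 1 and Retnlg with 3 juvenile counts in all, so this count is partly fixed by the filter. The summed level of the 12 was 24.7, 41.4, 17.5, 67.4 and 24.2 CPM in juvenile and 4980.5, 111, 3755 and 4111 CPM in adult replicates. Adult replicate 2, the adult library with the fewest C1q counts, thus also had the fewest neutrophil transcripts. The most abundant neutrophil gene, S100a8, had 10164, 161, 10920 and 10232 counts in adult replicates, and Elane was at 0 in adult replicate 2. Of 8 monocyte markers 5 were tested and 1, Ly6c2, was called higher in adult libraries, at 1280, 68, 296 and 500 counts against 0, 38, 0, 1 and 0 in juvenile replicates, a gene that passed the filter only through the adult libraries. The monocyte sum was 1037, 869.9, 970.0, 698 and 891 CPM in juvenile and 863, 1519, 923 and 627 CPM in adult replicates, most of it from Fn1. The ages overlapped, and adult replicate 2, low in C1q, had the highest monocyte sum, although Ccr2 and Chil3 were at 0 in all juvenile libraries and in adult replicate 2. Without juvenile replicates 4 and 5, edgeR called 5 neutrophil and 0 monocyte markers, and without adult replicate 2 it called 10 neutrophil markers higher, 4 monocyte markers higher and 1 lower. All 8 monocyte markers were tested without adult replicate 2, against 5 with every library. Ccr2 and Chil3 then passed the filter only through the adult libraries, so the monocyte count is partly fixed by the filter.

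Of 12 erythroid markers 11 were tested and all 11 were higher in adult libraries. The erythroid sum was 2471, 957, 426, 498 and 400.05 CPM in juvenile and 8500.1, 4908, 11832 and 41384 CPM in adult replicates, with Hbb-bs the most abundant gene. Without juvenile replicates 4 and 5, edgeR called 0 of the 11 erythroid markers, although all 11 kept their direction. Adult replicate 4 was highest for erythroid and adult replicate 1 for C1q transcripts, and adult replicate 2 was above all juvenile libraries for erythroid but not for C1q transcripts. Of 10 dendritic and antigen-presenting cell markers 6 were tested and 3 were higher in adult libraries, with sums of 336, 312, 451, 357 and 307 CPM in juvenile and 2166, 1402, 2194 and 1991 CPM in adult replicates. The called genes were Cd74, the most abundant of the markers, H2-Aa and H2-Ab1. Flt3, Zbtb46 and Itgax were also tested and not called, with log2 fold changes of -0.11, -0.72 and -0.13. H2-Eb1 was at 0 in juvenile replicates 1 and 4 and adult replicate 2, and Ccr7 in 6 of the 9 libraries.

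Osteoclast markers were abundant at both ages, with sums of 16793, 20431, 15756, 12161 and 13365 CPM in juvenile and of 25439, 24954, 27428 and 19121 CPM in adult replicates. Of 11 markers, all tested, 3 were higher in adult libraries (0 without juvenile replicates 4 and 5), and the most abundant, Acp5, made up 5867 to 8019 CPM in juvenile and 12094 to 16694 CPM in adult libraries. The C1q genes together came to 9.46, 0.135, 11.5, 24.5 and 0.9996 CPM in juvenile and to 378, 9.45, 93.5 and 308 CPM in adult replicates. Adult replicate 2 was thus at the adult level for osteoclast markers and within the juvenile range for C1q. Endothelial markers, which check the labelled tissue, summed to 743 ± 165 CPM (SD, n = 5) in juvenile and 832 ± 81.1 CPM (SD, n = 4) in adult libraries, and 0 of 10 tested were called in edgeR (0 at an unadjusted p under 0.05, and 0 in DESeq2). Tek, whose promoter drives the GFP used to choose the pieces, had 90 to 261 counts per library.

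**Figure D2:**
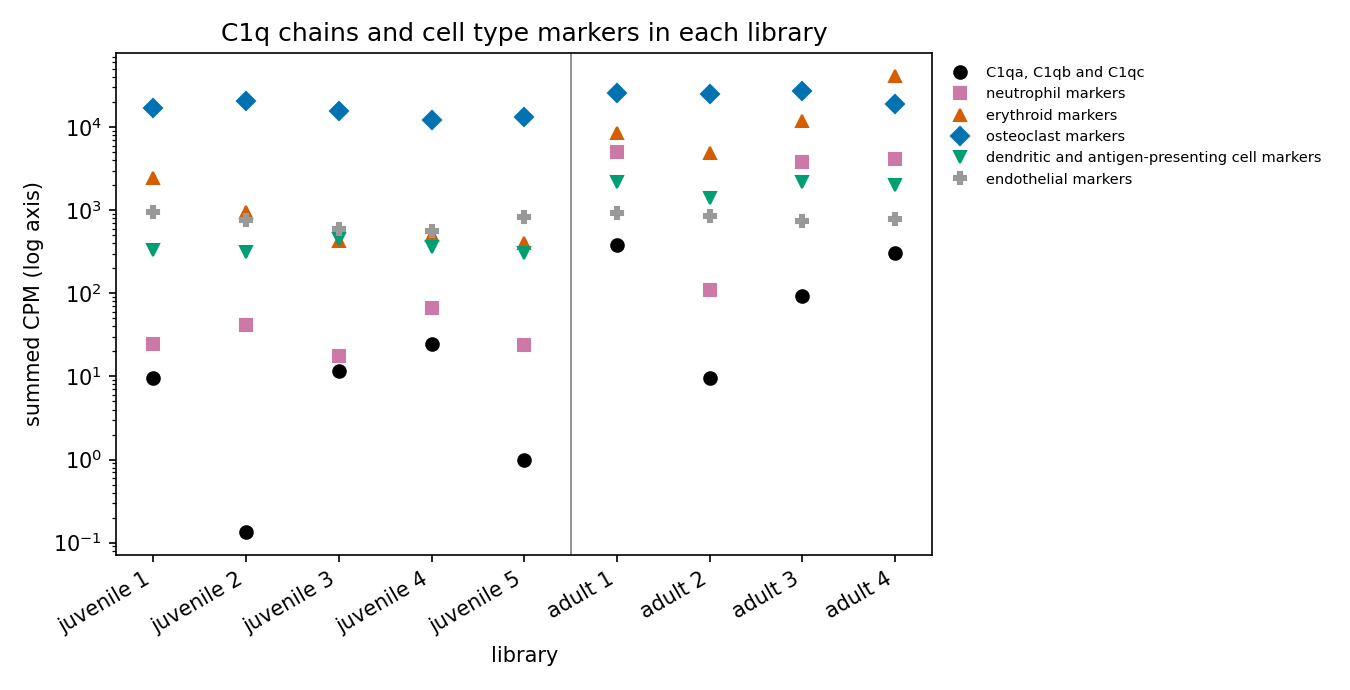
Summed CPM (log axis) of the 3 C1q genes and of 5 marker lists in each of the 9 libraries, 1 symbol per library and list, with juvenile libraries left and adult libraries right of the line. Neutrophil and C1q symbols of adult replicate 2 lie near the juvenile libraries, at 111 and 9.45 CPM, while its osteoclast and erythroid symbols lie above all juvenile ones.

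Among the remaining lists, 1 T and NK cell marker of 2 tested was called higher in adult libraries (Nkg7, which passed the filter only through them), and 0 of 6 B lineage markers, 0 of 1 mast cell and basophil markers and 0 of 6 pericyte and smooth muscle markers were called in edgeR. At an unadjusted p under 0.05 there were 2 B lineage, 0 mast cell and basophil and 2 pericyte and smooth muscle markers, beside 17.3% of all tested genes. DESeq2 called 2, 2 and 0 of these lists, beside 9.47% of the genes with an adjusted p. Of 10 osteoblast and osteocyte markers, 4 were lower and 1 was higher in adult libraries. Their sum, the largest of the marker lists, was 100281 ± 6746 CPM (SD, n = 5) in juvenile and 52097 ± 8809 CPM (SD, n = 4) in adult libraries. Marrow stroma had 1 higher and 1 lower of 6 tested, and chondrocyte markers 2 higher of 6 tested. Without adult replicate 2, which had the most chondrocyte transcripts, 1 chondrocyte, 1 B lineage, 2 T and NK cell and 1 mast cell and basophil marker were higher, 1 pericyte and smooth muscle marker was higher and 1 lower, and the osteoblast and stroma counts were the same. That fit tested 7 B lineage, 4 T and NK cell and 2 mast cell and basophil markers, against 6, 2 and 1 with every library. Of the 7 mast cell and basophil markers 6 were at 0 in every juvenile library and in adult replicate 2. Calls among the newly tested markers are thus partly fixed by the filter. Without juvenile replicates 4 and 5 the fit called 3 osteoblast and osteocyte markers and 1 stroma marker lower, 1 T and NK cell marker higher, and 0 of the chondrocyte, B lineage, mast cell and pericyte lists.

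The genes most like the C1q chains within the ages were sought among 10460 tested genes with a mean normalised count of at least 50. Over the deviations of the 9 libraries from their age mean, the 8 with the highest Pearson r to the mean of the 3 chains were Lyz2 (0.95), Rab40c (0.95), Camp (0.94), Fzd5 (0.93), Vps52 (0.93), Pcbp4 (0.93), R3hdm4 (0.93) and Aup1 (0.92). Lyz2, the lysozyme of myeloid cells, and Camp, a granule protein of neutrophils, were called higher in adult libraries, though Lyz2 shares sequence with its paralog Lyz1 and Camp passed the filter only through the adult libraries. Pcbp4 was lower in adult libraries, at a log2 ratio of -1.72 (adjusted p = 0.0239, edgeR, Benjamini-Hochberg), with no overlap of the ages, and the other 5 were not called. The Spearman rho of these genes lay between 0.77 and 0.95, and without adult replicate 2 and juvenile replicate 2 their r lay between 0.77 and 0.94. For Adgre1 the 8 were Cd209c (0.94), Ap1g2 (0.93), Cpsf3 (0.93), Lig1 (0.92), Zfyve9 (0.91), Fcna (0.89), Gda (0.89) and Eif3k (0.88), with rho between 0.76 and 0.97 and r between 0.72 and 0.93 without adult replicate 2 and juvenile replicate 3. Among the chains themselves r was 0.87 for C1qa with C1qb, 0.88 for C1qa with C1qc and 0.74 for C1qb with C1qc, with rho of 0.85, 0.73 and 0.70. Without the 2 libraries farthest out in the first gene of each pair, r was 0.88, 0.88 and 0.68. Each of these values describes 9 libraries that differ in many cell types, and low counts in juvenile libraries make single deviations coarse. The 8 genes of each list were picked for the highest r among 10460 genes, so values this high can come from the picking alone. Their rho, and their r with libraries left out, describe the same picked genes and do not remove this limit. Exons of Rab40c, Fzd5, Vps52, Pcbp4, R3hdm4 and Aup1, and of Ap1g2, Cpsf3, Lig1, Zfyve9 and Fcna, overlap genes on the other strand, so their levels are uncertain.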

How the data were processed

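The authors mapped paired-end reads of SMART-Seq v4 libraries to mm10 with TopHat2 and Bowtie2, and the submitters' processing notes also list featureCounts. Each deposited table holds the counts of 1 library as whole numbers. Strand setting, handling of pairs and annotation release are not given in the sources used here. Symbols and positions came from GENCODE for GRCm38, which held 37693 of the 39179 identifiers.

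The test between the ages used edgeR 4.0.16 in R 4.3.3 (filterByExpr, TMM, quasi-likelihood F test) and Benjamini-Hochberg adjustment over all tested genes, with a threshold of 0.05. Alternatives were DESeq2 1.42.0, limma 3.58.1 voom with sample quality weights, other scaling and filters, the replicate number as a block, and libraries left out. None of the 36 pairs of libraries agreed within sampling noise. The members and lists were chosen with earlier results of these data known. Genes named from a list are those of its called genes with the smallest adjusted p, up to 4, or, with fewer than 2 called, the 2 most abundant, and a fixed set of macrophage and complement genes. Promoters were taken from RefSeq.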

Additional observations from a re-analysis of the deposited data

Results flagged for a closer look

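Each group of libraries was screened for a library whose distance to its nearest neighbour made up most of the range of the group. Of 101 groups, 13 held such a library. The rule would flag about 1 in 20 groups by chance if values were normally distributed. Counts and CPM sums need not be so distributed, and all 13 flagged libraries stood on the high side. The number flagged therefore cannot show an excess over chance. The reasons why these libraries stood apart were not tested.

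Juvenile replicate 4 stood above the other juvenile libraries for C1qa (56.6 normalised counts against at most 6.68), C1qb (94.3 against at most 25.0) and Mertk (463 against at most 231). Clec10a was at 3.53 in the same library and at 0 in the others, but this rests on 3 counts, which a count of 0 also allows. Adgre1 was at 46.7 normalised counts in juvenile replicate 3, with at most 11.8 in the others, and Timd4 at 10.2 in adult replicate 4 with 0 in the others. C1s1 was at 69.6 in juvenile replicate 2 against at most 16.0, Maf at 998 in juvenile replicate 1 against at most 617, and Lrp1 at 1412 in adult replicate 2 against at most 900.4.

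Among the marker sums, erythroid markers reached 2471 CPM in juvenile replicate 1 against at most 957, and chondrocyte markers 4788 CPM in adult replicate 2 against at most 1105. Mast cell and basophil markers were at 6.79 CPM in juvenile replicate 3 against at most 2.999, and at 188 CPM in adult replicate 1 against at most 20.6.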

How the results depend on the processing

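The number of genes called, 520 in the reported fit, was 1490 with DESeq2 and 73 without juvenile replicates 4 and 5, where fewer libraries entered the fit. It ranged from 262 to 651 with 1 library left out. With the replicate number as a block (replicate block) it was 89, and C1qb was the 1 macrophage gene called. Same-numbered libraries share only a number: their deviations from the age means correlated at -0.03 to 0.03, so the block was not used elsewhere.

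Of the macrophage and C1q genes, 0 were called in the reported fit, 1 (Spic) with DESeq2's size factors, 2 with DESeq2, 1 (C1qb) without a filter on low counts, and 0 to 4 with 1 library left out, 4 without adult replicate 2 and 1 (C1qb) without juvenile replicate 4. Adjusted p-values of C1qb ran from 0.0249 to 0.119 and those of C1qa from 0.0226 to 0.282 over the alternatives. The lowest value of C1qa came from the fit without adult replicate 2, where the filter partly fixed its call. The filter also partly fixed the call of C1qb without juvenile replicate 4. The sign turned for Mrc1 (-0.64) and Cd163 (-0.68) with limma voom and sample quality weights, and for Cd163 with the replicate block (-0.13) and without adult replicate 4 (-0.79, of a range from -0.79 to 0.96 with 1 library left out). The cause was not tested. The other 7 tested genes kept their sign under every alternative in which they were fitted. With a minimum of 10 counts in every library only Cd68 and Mertk were fitted. Scaling by library totals left 20 of 20 mean levels within 1 SD, and the longest transcript left 19 of 20 levels per kb, Spic in juvenile libraries moving to 4.38. Depth leaves a gene at 0 counts bounded by 3 counts in that library, and no fit at reduced depth was run.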
